A study of Mus musculus with 10 samples.

Results

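The 35 genes described here encode the proton pump of the lysosome and the complexes that dock on it, in C2C12 cells given a control siRNA or an siRNA against *Fndc1*. They are the protein-coding genes of the deposited table whose symbols begin with Atp6v0, Atp6v1, *Atp6ap1* or *Atp6ap2*, or are *Lamtor1* to *Lamtor5* or *Rraga* to *Rragd*, out of 55359 genes in all. By symbol they fall into 9 V0 genes, 14 V1 genes, 3 accessory genes, 5 Ragulator genes and 4 Rag genes. A gene was taken as protein-coding where its list of transcript types includes that type, as for 21775 genes of the table, and the pattern also matched 2 names without one, the pseudogenes *Atp6v0c-ps1* and *Atp6v0c-ps2*. Of the 35 genes, 28 reached the mean of 0.5 FPKM that was required for testing. FPKM stands for fragments normalised to a length for each gene and to library size, a level per length.

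The vacuolar H+-ATPase (V-ATPase) is a rotary pump that acidifies lysosomes, endosomes and secretory vesicles. Its peripheral V1 sector hydrolyses ATP and turns a central stalk, and its membrane sector V0 carries protons through a ring of c subunits beside subunit a. On the lysosome the pump holds Ragulator, a scaffold of LAMTOR proteins, which anchors the Rag GTPases, and Rag dimers charged by amino acids bring the kinase complex mTORC1 to the lysosomal surface. In myoblasts mTORC1 signalling is known for its part in growth and differentiation. Several subunits have isoforms whose use differs between tissues, such as a3 in osteoclasts and B1 in kidney intercalated cells.

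C2C12 is a line of mouse myoblasts that form myotubes in low serum. For growth the labels give 20% fetal bovine serum, and the study's methods give a lower share for C2C12. Per the labels, 5 si-Control and 5 si-*Fndc1* libraries were made from cells transfected with siRNA at 100 nM and kept for 4 days in 2% horse serum, and the control group differs only in the siRNA. The text of the series gives 48 h after transfection instead, and the study's methods speak of fewer libraries than are used here, without naming them. All libraries are of 1 cell line, and although the study's methods speak in general of independent repeats, neither they nor the labels say of these libraries that they came from separate cultures. The p-values therefore measure the spread between these samples, which may be technical.

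The total count ran from 66771605 to 75995168 in si-Control and from 56332844 to 72839369 in si-*Fndc1*. *Fndc1* itself, the knockdown check, had a mean of 27.8 ± 2.04 FPKM (SD, n = 5) in the controls. After knockdown the mean was 20.9 ± 1.70 FPKM (SD, n = 5). The edgeR quasi-likelihood test with Benjamini-Hochberg adjustment put the log2 fold change of *Fndc1* at -0.40 (adjusted p = 0.000934). With the correction for GC content and length described below, the fall of *Fndc1* was smaller, at -0.22 (edgeR adjusted p = 0.0104). All 9 muscle markers examined were expressed, with a summed level of 3484 to 3908 FPKM in si-Control against 3308 to 4033 FPKM in si-*Fndc1*, and 3 of them rose and 1 fell. Hepatocyte transcripts differed between the groups: 9 of 9 tested markers (10 listed) rose, with a sum of 0.193 to 5.37 FPKM in si-Control against 42.0 to 156 FPKM in si-*Fndc1*. The share of counts on mitochondrially encoded genes was 4.90% to 5.49% in si-Control against 5.82% to 6.91% in si-*Fndc1*, without overlap. The part of the hepatocyte transcripts in the values that follow was not tested. For the mitochondrial share only a fit without the mitochondrially encoded genes was made, in which 7 members rose. In RNA from whole cultures fewer cells of a type and less RNA per cell cannot be told apart.

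Most genes of the pump and its docking complexes were expressed at moderate to high levels, and the spread between genes was far wider than any difference between the groups. Among the 28 tested genes the mean over all libraries ran from 0.583 FPKM for *Atp6v1g2* to 396 FPKM for *Atp6v1g1*, a 679-fold range, and 23 genes had at least 5 FPKM. *Atp6v1g1*, a G subunit of the V1 stator, was the most abundant of all, and the next were *Atp6ap2* at 71.1 FPKM, *Atp6v0b* at 67.6 FPKM and *Lamtor5* at 63.2 FPKM. The values of neighbours in this order, such as *Atp6v0b* and *Lamtor5*, overlapped between libraries. The order also depends on the length behind each FPKM. By counts over all libraries *Atp6v1a*, at 161524, stood above *Atp6ap2*, at 144666.

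**Figure D1:**
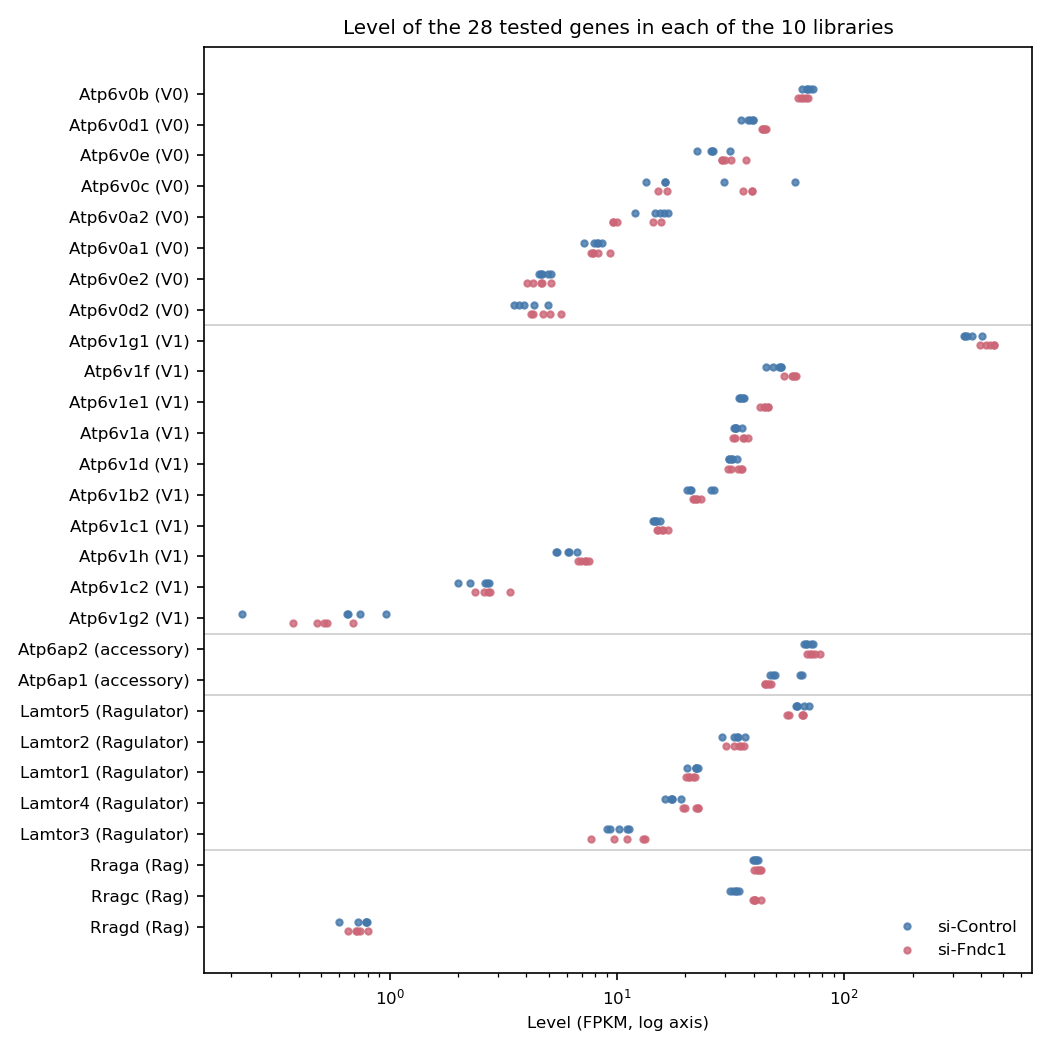
Level of each of the 28 tested genes (FPKM, log axis), with 1 point for each library, 5 si-Control and 5 si-*Fndc1*. Genes are ordered by mean level within V0, V1, accessory, Ragulator and Rag, and *Atp6v1g1* stands alone at the high end.

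The other 7 genes had too few reads to test, and most of them are isoforms known from other tissues. *Atp6v1g3*, *Rragb*, *Atp6ap1l* and *Atp6v1fnb* had 0 counts in every library, which allows at most 0.0395 to 0.0533 CPM (counts normalised to library size) in a library (3 counts of its total, counting error only). *Rragb* encodes RagB, a close paralogue of RagA, and *Atp6v1fnb* is a neighbour of *Atp6v1f* that matches by name and is not a subunit. *Atp6v0a4* (subunit a4) had 9 counts over all 10 libraries, *Atp6v1b1* (B1) had 7 and *Atp6v1e2* (E2) had 3. The markers of kidney intercalated cells, which use B1, were low in both groups, summing to at most 0.0348 FPKM with *Foxi1* and *Slc26a4* at 0. Those of macrophages and osteoclasts summed to 0.724 to 1.38 FPKM with *Ptprc*, *Adgre1* and *Dcstamp* at 0. The a3 isoform used in osteoclasts is not among the 7 genes, and its gene *Tcirg1* had a mean of 11.6 FPKM over all libraries. Of the neuron markers *Snap25* and *Rbfox3* were at 0 while *Syn1* and *Tubb3* were expressed, giving a sum of 38.2 to 45.4 FPKM.

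Within most subunits 1 isoform gave nearly all of the transcript. *Atp6v1b2* made up at least 99.9% of the summed FPKM of subunit B in every library, *Atp6v1e1* at least 99.9% of E, *Atp6v1g1* at least 99.7% of G and *Rraga* 100% of RagA and RagB. *Atp6v0d1* gave 90.4% ± 1.03 (SD, n = 5) of subunit d in si-Control against 90.3% ± 1.20 (SD, n = 5) in si-*Fndc1*, and *Atp6v1c1* gave 85.8% ± 1.53 (SD, n = 5) and 85.1% ± 1.21 (SD, n = 5) of subunit C. The *Atp6v0e* share of subunit e was 82.9% to 87.3% in si-Control against 84.9% to 88.8% in si-*Fndc1*, so the ranges overlapped.

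Subunit a was the exception, with 3 genes at similar levels, and its make-up differed between the groups. Subunit a shapes the proton path of V0, and the name pattern takes in a1 and a2 but not *Tcirg1* (a3). The *Atp6v0a1* (a1) share was 20.6% to 23.4% in si-Control against 24.5% to 29.4% in si-*Fndc1*, with no overlap. The *Tcirg1* share was 33.8% to 40.8% in si-Control against 29.2% to 37.2% in si-*Fndc1*, and the *Atp6v0a2* share was 35.8% to 43.8% and 34.4% to 44.8%, so both overlapped. *Tcirg1* itself fell, from 13.1 ± 0.476 FPKM (SD, n = 5) to 10.1 ± 0.306 FPKM (SD, n = 5), a log2 fold change of -0.37 (edgeR, adjusted p = 5.17e-05), and it stayed lower at -0.16 (adjusted p = 0.00444) once GC content and length were corrected for. For *Atp6v0a1* the log2 fold change was 0.04 (adjusted p = 0.622), and 0.17 (adjusted p = 0.0356) with the correction. *Atp6v0a2* had 15.0 ± 1.84 FPKM in the controls and 11.8 ± 2.92 FPKM after knockdown (SD, n = 5 each), without a call. *Rragd* showed the same kind of difference in shares at a much lower level, with 1.88% to 2.38% of RagC and RagD in si-Control against 1.59% to 1.84% in si-*Fndc1*, while *Rragd* itself had a log2 fold change of -0.02 (adjusted p = 0.926). The shares are descriptions and carry no test.

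**Figure D2:**
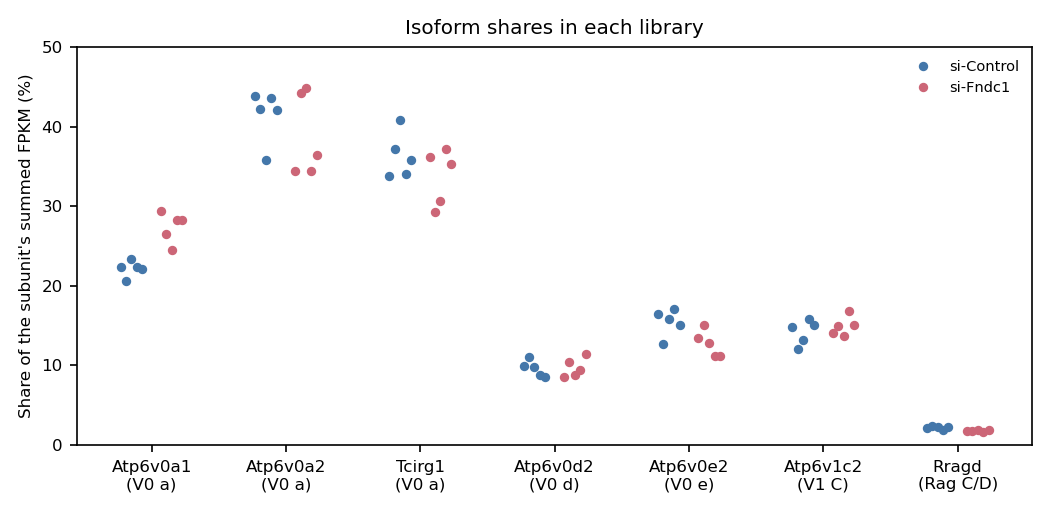
Share of each gene in the summed FPKM of its subunit (%), with 1 point for each library, for the 3 genes of subunit a and for the minor isoforms of subunits d, e, C and RagC/D. The *Atp6v0a1* points of si-*Fndc1* (24.5% to 29.4%) lie above those of si-Control (20.6% to 23.4%), and the *Tcirg1* and *Atp6v0a2* points overlap.

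After *Fndc1* knockdown 7 of the 28 tested genes rose and 0 fell in edgeR's test with adjusted p under 0.05, while 21 did not pass. The 7 are *Atp6v0d1* in V0, *Atp6v1e1*, *Atp6v1f*, *Atp6v1g1* and *Atp6v1h* in V1, *Lamtor4* in Ragulator and *Rragc* among the Rags, and their rises were modest, at 1.16 to 1.27 times the control mean. Over all 13548 genes tested 17.3% rose and 17.2% fell, 34.4% in either direction, and the members' shares of 25.0% and 0 are to be read beside these. Among genes with a mean of at least 5 FPKM the members passed in 7 of 23 cases, or 30.4%, all of them rises. Of all such genes 23.3% rose, and 46.3% passed in either direction. At an unadjusted p under 0.05, 9 members rose and 1 fell by the same test, beside 2990 rises and 2999 falls over all 13548 genes. At its adjusted threshold DESeq2 called 8 rises and 1 fall among the members, and 5019 genes in all. The median log2 fold change of the members was 0.07, beside 0.004 over all tested genes.

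GC content moved with the group difference across the whole series, which bears on each of these calls. The log2 fold change correlated with GC content at a Spearman rho of -0.523 across the 11185 tested genes with a reference GC content and length, and at -0.006 after a trend with GC content and length was fitted and removed in each library. Genes are not independent replicates, so this is a description of these libraries. With the correction 11.3% of genes rose and 11.4% fell, and among the 28 members 6 rose and 4 fell, with a median of 0.002. *Atp6v0d1*, *Atp6v1e1*, *Atp6v1f*, *Lamtor4* and *Rragc* were called as rises both ways. *Atp6v1g1* and *Atp6v1h* lost the call, *Atp6v0a1* gained one, and *Atp6v1d*, *Atp6ap2*, *Lamtor5* and *Rraga* were called as falls only with the correction.

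**Figure D3:**
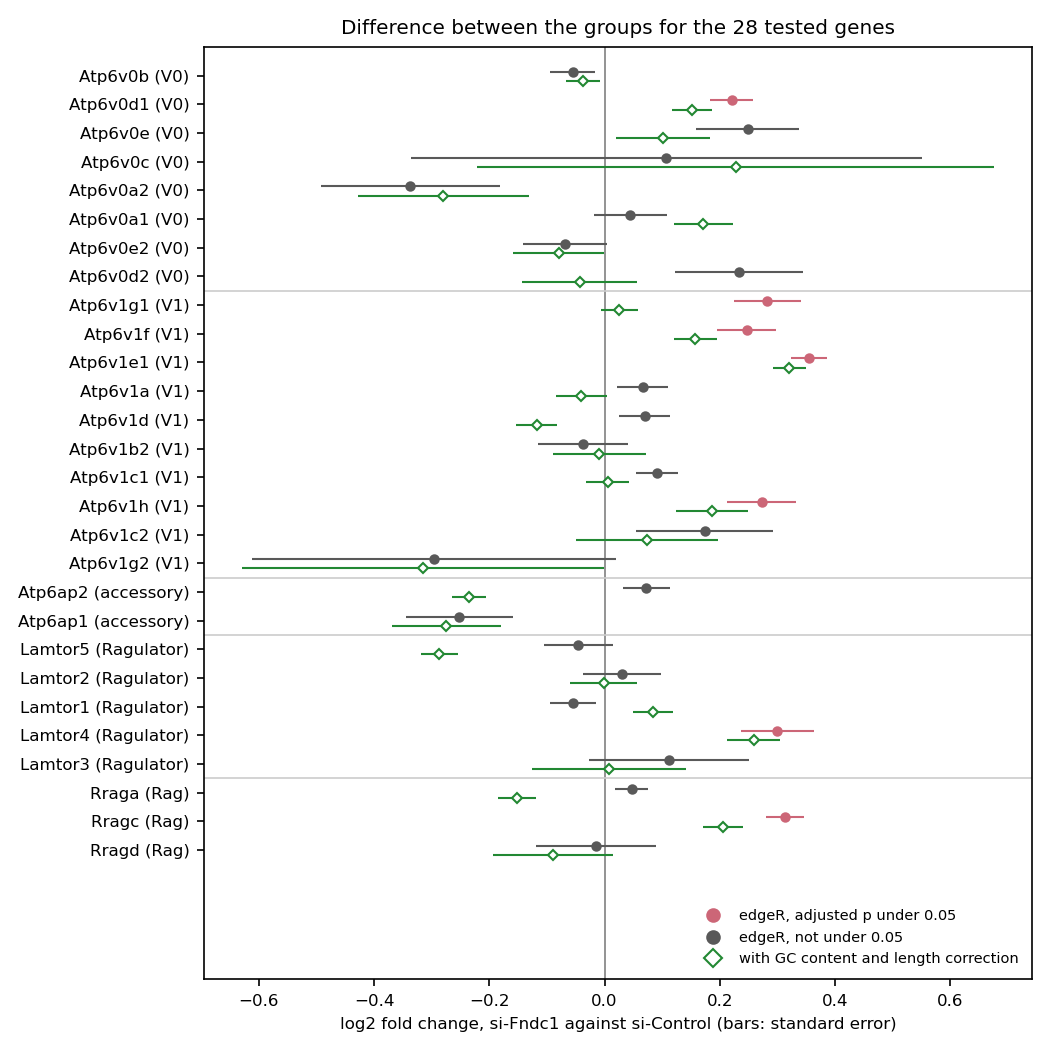
Log2 fold change of si-*Fndc1* against si-Control for the 28 tested genes, with bars for the standard error. Filled points are edgeR's values (red where the adjusted p was under 0.05, 7 genes, all to the right of 0), and open diamonds are the values corrected for GC content and length, which lie to the left of the filled points for *Atp6v1g1*, *Atp6ap2*, *Lamtor5* and *Rraga*.

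In the CPM values 6 of the 7 genes had groups that did not overlap, all higher in si-*Fndc1*, and 0 members were lower without overlap. Such separation was seen for 12.8% of all tested genes in the higher and 12.3% in the lower direction. For each of the 6 a two-sided exact permutation test on FPKM gave p = 0.00794, the lowest value possible with these group sizes. Groups without overlap always give this value, so it adds nothing to the separation itself. All 7 calls were kept when any single library was left out.

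*Atp6v1e1* (ENSMUSG00000019210, listed at chr6:120771266-120799754) showed the clearest rise of the 7. It encodes subunit E1 of the peripheral stalks that hold V1 still against the turning rotor. Its levels were 35.1, 36.2, 34.9, 34.3 and 35.7 FPKM in si-Control libraries 1 to 5 and 45.0, 42.5, 46.3, 44.4 and 46.2 FPKM in si-*Fndc1* libraries 1 to 5. The lowest knockdown library stood well above the highest control. The means of 35.3 ± 0.734 FPKM (SD, n = 5) and 44.9 ± 1.56 FPKM (SD, n = 5) gave a log2 fold change of 0.35 (standard error 0.031, edgeR adjusted p = 2.92e-05), and the corrected value was 0.32 (adjusted p = 6.42e-05). Its partner in the stalk, *Atp6v1g1* (ENSMUSG00000039105, chr4:63463009-63468987), had 339, 406, 363, 337 and 346 FPKM in si-Control and 420, 397, 438, 455 and 458 FPKM in si-*Fndc1*. Control library 2 was higher than knockdown library 2, so the groups of this gene overlapped (exact permutation p = 0.0159). The log2 fold change of *Atp6v1g1* was 0.28 (standard error 0.058, edgeR adjusted p = 0.00356), against 0.03 (adjusted p = 0.617) with the correction, so its rise depended on how GC content and length were treated.

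Among the rotor and regulatory subunits of V1, *Atp6v1f* and *Atp6v1h* rose. *Atp6v1f* (ENSMUSG00000004285, chr6:29467717-29470511), subunit F of the central rotor, had 51.5, 52.5, 52.5, 45.2 and 48.5 FPKM in si-Control and 58.9, 54.4, 59.8, 61.0 and 61.4 FPKM in si-*Fndc1*. The groups lay close together, with knockdown library 2 just above the top controls. For *Atp6v1f* the log2 fold change was 0.25 (standard error 0.051, edgeR adjusted p = 0.00375), and 0.16 (adjusted p = 0.0130) with the correction. *Atp6v1h* (ENSMUSG00000033793, chr1:5140241-5232752), subunit H, which regulates coupling between V1 and V0, had 5.44, 6.70, 5.39, 6.06 and 6.14 FPKM in si-Control and 6.94, 7.23, 6.75, 7.31 and 7.51 FPKM in si-*Fndc1*. Control library 2 and knockdown library 3 nearly met. Its log2 fold change of 0.27 (standard error 0.060, edgeR adjusted p = 0.00516) became 0.19 (adjusted p = 0.0534) with the correction. *Atp6v1h* overlaps *Rgs20* on the other strand, whose counts came to 11.0% of its own, and whether the counting used strand is not stated, so reads of the overlap cannot be told apart.

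The other V1 genes gave no call in the main edgeR test. The catalytic subunit A gene *Atp6v1a* had a mean of 34.4 FPKM over all libraries and a log2 fold change of 0.07 (edgeR adjusted p = 0.271), and *Atp6v1b2*, which forms the ATP-binding head with it, had 22.7 FPKM and -0.04 (adjusted p = 0.754). *Atp6v1d*, the axle of the rotor, had 32.7 FPKM and 0.07 (adjusted p = 0.256), which turned to a fall of -0.12 (adjusted p = 0.0352) with the correction. *Atp6v1c1*, the subunit C gene that joins the stalks and is known for its part in reversible assembly, had 15.3 FPKM and 0.09 (adjusted p = 0.0799). With upper-quartile scaling *Atp6v1c1* passed as a rise, at 0.11 (edgeR adjusted p = 0.0407). *Atp6v1c2* and *Atp6v1g2* are uncertain, because each overlaps a more abundant gene on the other strand. *Atp6v1c2* had 4440 counts beside 268983 for *Pdia6*, and *Atp6v1g2* had 1159 beside 11308 for *Nfkbil1*, and their adjusted p values were 0.287 and 0.506.

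In the membrane sector *Atp6v0d1* alone passed edgeR's test, while DESeq2 also called *Atp6v0e* and the correction *Atp6v0a1*. Subunit d1 sits on the c ring and links it to the rotor. *Atp6v0d1* (ENSMUSG00000013160, chr8:106251097-106292679) had 35.1, 39.8, 39.7, 38.6 and 37.7 FPKM in si-Control and 44.9, 43.4, 44.0, 45.1 and 43.9 FPKM in si-*Fndc1*. The 5 knockdown libraries lay within a narrow band above all controls. For *Atp6v0d1* the log2 fold change was 0.22 (standard error 0.037, edgeR adjusted p = 0.00106), and 0.15 (adjusted p = 0.0112) with the correction.

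The most abundant V0 gene was *Atp6v0b* (ENSMUSG00000033379, chr4:117741523-117744530), which encodes the c'' proteolipid of the ring. It had 65.3, 72.9, 70.4, 68.3 and 68.4 FPKM in si-Control and 62.8, 64.3, 69.4, 66.2 and 67.9 FPKM in si-*Fndc1*. The groups overlapped over most of their range, and the log2 fold change was -0.06 (standard error 0.039, edgeR adjusted p = 0.301). *Atp6v0e*, a small membrane subunit, missed the threshold at 0.25 (edgeR adjusted p = 0.0534). It passed with DESeq2 (adjusted p = 0.0237) and, at 0.31 (adjusted p = 0.0131), without control library 2, whereas the corrected value was 0.10 (adjusted p = 0.413). The d2 isoform gene *Atp6v0d2* had 0.23 (adjusted p = 0.130), and it too passed without control library 2, at 0.31 (adjusted p = 0.0372), but the corrected value was -0.04 (adjusted p = 0.802). The minor e isoform gene *Atp6v0e2* had -0.07 (adjusted p = 0.506). The *Atp6v0a2* levels of si-*Fndc1* fell into separate ranges, 9.57 to 9.97 FPKM in libraries 1, 4 and 5 and 14.4 and 15.6 FPKM in libraries 3 and 2, beside 12.1 to 16.8 FPKM in si-Control. Its log2 fold change was -0.34 (adjusted p = 0.119), and -0.46 (adjusted p = 0.0296) without si-*Fndc1* library 2.

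The ring subunit gene *Atp6v0c* was by far the least steady of the members. It encodes the c proteolipid that makes up most of the ring. Its levels were 29.6, 16.2, 16.2, 60.8 and 13.4 FPKM in si-Control and 39.2, 39.1, 16.6, 15.1 and 36.0 FPKM in si-*Fndc1*. Libraries of both groups were either low or high, with control library 4 the highest of all, and the control values spanned a 4.54-fold range. The coefficient of variation within groups was 57.9%, against a median of 6.91% over the tested members and 8.77% over all tested genes, of which 2.75% varied more. The log2 fold change of *Atp6v0c* was 0.11 (standard error 0.44, edgeR adjusted p = 0.874), and 0.63 (adjusted p = 0.198) without control library 4.

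A processed pseudogene of *Atp6v0c* also took many reads, and how reads that match both were counted is not stated. Reads of *Atp6v0c* therefore cannot be placed with certainty, and whether this bears on its spread was not tested. *Atp6v0c-ps2* had 53160 counts in all beside 74477 for *Atp6v0c*, and its part of the sum of both ran from 18.5% to 62.4% between libraries. The sum itself ran from 104 to 280 CPM in si-Control and from 144 to 248 CPM in si-*Fndc1*. The pseudogene rose by the same test, with a log2 fold change of 0.57 (edgeR adjusted p = 0.00931), and its groups did not overlap. When counts of *Atp6v0c* and its pseudogenes were added together, the log2 fold change was 0.30 (adjusted p = 0.429), so no call was made for the sum.

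**Figure D4:**
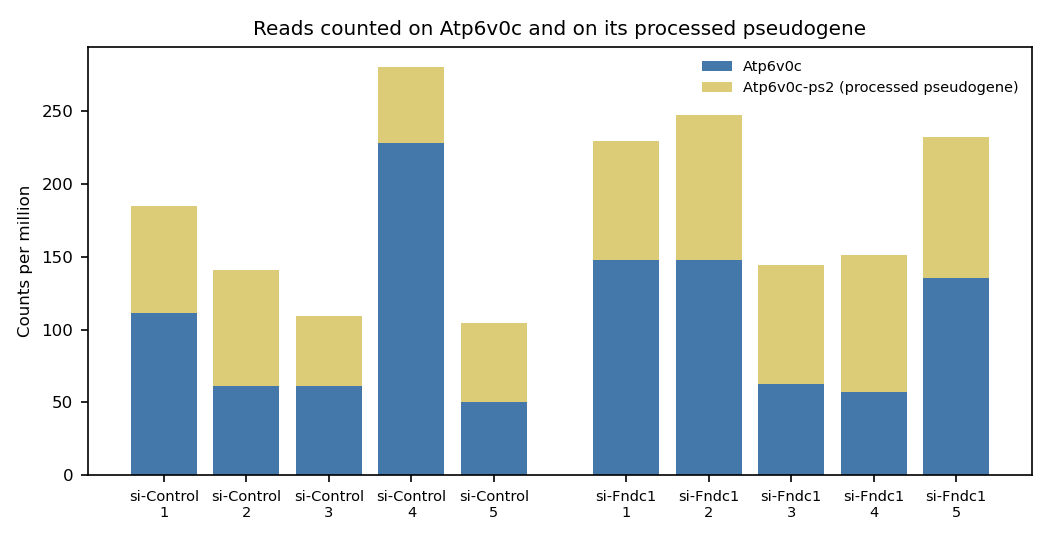
CPM on *Atp6v0c* (blue) and on its processed pseudogene *Atp6v0c-ps2* (yellow), stacked, in each of the 10 libraries. *Atp6v0c* varies widely within both groups, with the tallest bar in si-Control library 4.

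The accessory genes gave no call in edgeR's test, but *Atp6ap1* was called as a fall by DESeq2 (-0.25, adjusted p = 0.0251) and *Atp6ap2* with the correction. *Atp6ap2* (ENSMUSG00000031007, chrX:12454040-12483288), also known as the prorenin receptor, is an assembly partner of V0 and the most abundant of them. It had 72.8, 71.5, 66.6, 68.0 and 68.6 FPKM in si-Control and 70.4, 68.6, 74.6, 71.9 and 78.1 FPKM in si-*Fndc1*. The groups overlapped, with a log2 fold change of 0.07 (standard error 0.041, edgeR adjusted p = 0.193), but the corrected value was -0.23 (adjusted p = 0.000351), a fall. *Atp6ap1*, which encodes the Ac45 glycoprotein inside the V0 ring, had 64.2, 49.8, 47.4, 48.6 and 65.1 FPKM in si-Control and 44.7, 47.8, 46.8, 44.7 and 45.7 FPKM in si-*Fndc1*. Control libraries 1 and 5 stood apart above all others, while control library 3 lay within the knockdown range. The log2 fold change of *Atp6ap1* was -0.25 (standard error 0.094, edgeR adjusted p = 0.0587), and the corrected value was -0.27 (adjusted p = 0.0604). Without control library 2, 3 or 4 *Atp6ap1* passed as a fall, at -0.29 (adjusted p = 0.0455), -0.30 (adjusted p = 0.0317) and -0.29 (adjusted p = 0.0397).

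Of the 5 Ragulator genes *Lamtor4* alone rose. *Lamtor4* (ENSMUSG00000050552, chr5:138253744-138257660) encodes a roadblock-fold partner within the scaffold. It had 17.4, 19.1, 17.5, 16.3 and 17.5 FPKM in si-Control and 19.5, 20.0, 22.3, 22.8 and 22.8 FPKM in si-*Fndc1*. Knockdown library 1 was just above control library 2, and the rest stood clear. *Lamtor4* had a log2 fold change of 0.30 (standard error 0.064, edgeR adjusted p = 0.00417), and 0.26 (adjusted p = 0.00256) with the correction. *Lamtor5* (ENSMUSG00000087260, chr3:107186174-107191398), which pairs with it, is the most abundant of the scaffold genes, with 61.7, 70.0, 66.3, 62.1 and 62.1 FPKM in si-Control and 57.3, 56.2, 66.0, 65.2 and 65.6 FPKM in si-*Fndc1*. The groups overlapped. *Lamtor5* had a log2 fold change of -0.05 (standard error 0.060, edgeR adjusted p = 0.597), but -0.29 (adjusted p = 0.000155) with the correction, so the pair separated further. *Lamtor1*, the lipidated subunit that wraps the others and fixes them to the membrane, had 21.5 FPKM and -0.05 (adjusted p = 0.313). *Lamtor2* and *Lamtor3*, which form the other dimer, had 33.5 and 10.6 FPKM, with log2 fold changes of 0.03 (adjusted p = 0.767) and 0.11 (adjusted p = 0.575).

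Of the Rag genes *Rragc* rose and *Rraga* did not pass. A Rag dimer joins RagA or RagB to RagC or RagD. *Rragc* (ENSMUSG00000028646, chr4:123811239-123830790) had 33.4, 32.5, 34.3, 31.3 and 33.5 FPKM in si-Control and 40.0, 40.7, 39.5, 40.6 and 43.1 FPKM in si-*Fndc1*, which left a wide gap between the groups. Its log2 fold change was 0.31 (standard error 0.033, edgeR adjusted p = 7.68e-05), and 0.21 (adjusted p = 0.00179) with the correction. *Rraga* (ENSMUSG00000070934, chr4:86493905-86495522) had 40.9, 41.0, 40.2, 41.7 and 39.5 FPKM in si-Control and 42.6, 40.1, 41.5, 42.0 and 42.8 FPKM in si-*Fndc1*. These values overlapped, with a log2 fold change of 0.05 (standard error 0.029, edgeR adjusted p = 0.235) and a corrected value of -0.15 (adjusted p = 0.00824). *Rraga* was the higher of the pair in si-Control, and in si-*Fndc1* the levels of the pair overlapped.

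**Figure D5:**
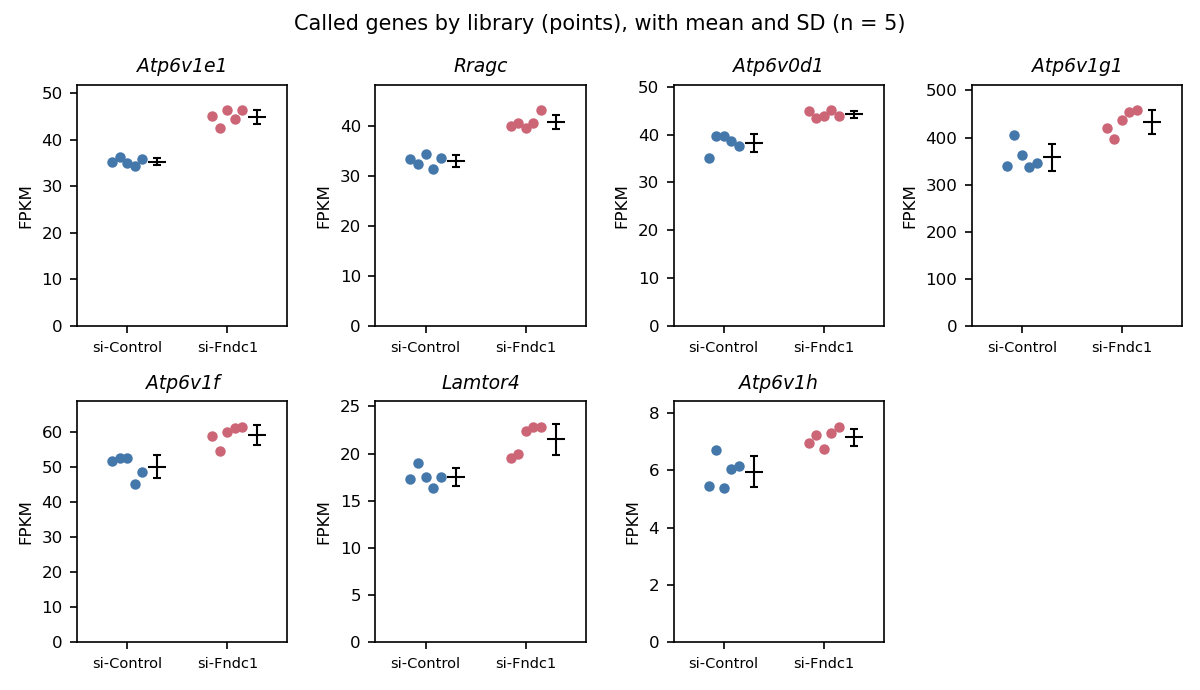
Level (FPKM, axes from 0) of the 7 genes that passed edgeR's test, with 1 point for each of the 5 si-Control (blue) and 5 si-*Fndc1* (red) libraries and the mean ± SD beside them. The groups are separate in every panel but that of *Atp6v1g1*, where control library 2 reaches 406 FPKM.

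Summed over their genes, V1 and the Rags stood higher in si-*Fndc1*, as did the sum over all genes. The summed FPKM of V1 was 556 ± 34.4 (SD, n = 5) in si-Control against 655 ± 34.0 (SD, n = 5) in si-*Fndc1*, most of it *Atp6v1g1*, and control library 2 overlapped the knockdown group. The Rag sum was 74.4 ± 0.741 and 83.3 ± 2.10 FPKM (SD, n = 5 each), without overlap. V0 gave 193 ± 18.2 and 200 ± 12.8 FPKM, Ragulator 147 ± 7.26 and 149 ± 11.3 FPKM, and the accessory genes 124 ± 10.3 and 119 ± 3.74 FPKM (SD, n = 5 each), differences no larger than the spread between libraries. The FPKM of all genes also summed higher after knockdown, with 300979 to 320728 in the controls and 325534 to 347901 in the knockdown libraries, so the class sums are to be read beside that shift. They are descriptions and carry no test.

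Many lysosomal genes hold in their promoters the sequence CACGTG, the core of the E-box that the transcription factors TFEB and TFE3 bind, or its longer palindrome TCACGTGA. Both were looked for in the 300 bases from 250 before to 50 after the RefSeq start of each gene (build GRCm38.p6), in which 27 of the 35 members had an entry. Each motif reads the same on both strands, and every TCACGTGA holds the shorter motif too. The shorter one was found for 7 of the 21 tested members with an entry, or 33.3%. Of all 9225 tested genes with an entry 1107 held it, or 12%. The longer one was found for 3 of the 21 members, or 14.3%, and for 2.37% of the 9225 genes. Over all promoters of this length the shares were 7.15% and 0.974%. Of the 5 members that rose and had an entry, 3 held CACGTG, and the share over all genes that rose was not counted. The stretches below are those of the members that rose and hold CACGTG, and of the members that hold TCACGTGA whether they rose or not, with CACGTG in capitals and position 0 at the first transcribed base.
Atp6v0d1 (chr8:105566045-105566104, minus strand, motif at -3): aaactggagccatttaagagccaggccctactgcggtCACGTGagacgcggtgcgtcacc
Lamtor4 (chr5:138255343-138255402, plus strand, motifs at -120 and -104): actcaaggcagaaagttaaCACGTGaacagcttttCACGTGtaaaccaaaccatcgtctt
Rragc (chr4:123917294-123917353, plus strand, motif at -112): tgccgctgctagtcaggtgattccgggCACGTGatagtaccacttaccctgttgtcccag
Atp6v0e (chr17:26676356-26676415, plus strand, motif at 3): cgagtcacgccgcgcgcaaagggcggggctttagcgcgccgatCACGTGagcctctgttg
Atp6v1a (chr16:44139358-44139417, minus strand, motif at -131): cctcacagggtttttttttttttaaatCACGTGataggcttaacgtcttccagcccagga
Members with the motif were found on both sides of the test. *Atp6v0d1*, *Lamtor4* and *Rragc* rose, whereas *Atp6v0b*, *Atp6v0e*, *Atp6v1a* and *Lamtor1* hold it and did not pass, and *Rragb* holds it at 3 places and had 0 counts. *Atp6v1e1* and *Atp6v1f* rose without it in this window. A match is a description of the letters, not a bound site.

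The genes around this machinery were taken from 12 lists of 70 genes, of which 69 were found and 67 tested. Of these 11 rose, 15 fell and 41 did not pass, or 16.4% and 22.4% beside 17.3% and 17.2% of all genes, and with the correction for GC content and length 12 rose and 7 fell. The median log2 fold change was -0.04, and 0.02 with the correction. The genes named below are those with the smallest p in their list.

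Among factors that build or regulate the pump, *Vma21*, an assembly chaperone of V0, rose from 9.03 ± 0.698 to 13.3 ± 0.614 FPKM (SD, n = 5 each), a log2 fold change of 0.57 (edgeR adjusted p = 4.85e-05) and 0.35 with the correction (adjusted p = 0.000985). This was a larger fold than that of any subunit gene called. Of the 10 tested genes of that list 2 rose and 1 fell. Of the 14 lysosomal membrane proteins 4 rose and 4 fell, and *Lamp1*, a major glycoprotein of the lysosomal membrane, rose to 378 ± 8.74 FPKM (SD, n = 5) from 324 ± 3.51 FPKM (SD, n = 5), with 0.23 (adjusted p = 0.000146) and 0.20 (adjusted p = 0.000742) with the correction, but with 0.02 (limma adjusted p = 0.622) on quantile-normalized values. *Tfeb*, which encodes the lysosomal transcription factor, fell from 3.61 ± 0.290 to 2.60 ± 0.175 FPKM (SD, n = 5 each), at -0.46 (adjusted p = 0.000608), but with the correction the value was -0.13 (adjusted p = 0.188). It was the 1 gene of 3 tested in its list to pass, and *Tfec* was at 0. With the correction the 1 gene called was instead *Tfe3*, which had -0.04 (adjusted p = 0.634) and a corrected rise of 0.24 (adjusted p = 0.00227). Of the 8 genes of BORC, which couples lysosomes to transport, 1 passed: *Borcs7* had 0.21 (adjusted p = 0.0157), which changed sign to -0.07 (adjusted p = 0.444) with the correction.

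Among the genes of mTORC1 and its inputs, 2 of the 5 kinase complex genes, *Mtor* and *Rptor*, fell in edgeR's test, whereas with the correction 0 fell and 1 rose. *Mtor*, the kinase, went from 8.38 ± 0.292 to 7.03 ± 0.378 FPKM (SD, n = 5 each), a log2 fold change of -0.25 (edgeR adjusted p = 0.00122), and the corrected value was -0.04 (adjusted p = 0.337). *Rptor*, the scaffold that recruits substrates, had -0.18 (adjusted p = 0.0307), which turned to a rise of 0.13 (adjusted p = 0.0297) with the correction. The groups of *Rptor* overlapped, and its fall was called in 4 of the 10 fits that left out a single library. GATOR2, which relays amino acid supply to the Rags, had 3 rises and 1 fall among 5 genes, with *Seh1l* at 0.33 (adjusted p = 0.000195) and 0.13 (adjusted p = 0.0284) with the correction. None of the 3 genes of GATOR1, the GTPase-activating complex for RagA, and none of the 5 of *Rheb* and the TSC complex passed edgeR's adjusted threshold, with the smallest p for *Depdc5* at -0.12 (adjusted p = 0.188) and *Tsc2* at -0.23 (adjusted p = 0.0719). At an unadjusted p under 0.05 the count was 0 in GATOR1 and 1 in the other list, and DESeq2 called *Tsc2* (adjusted p = 0.0413) but not *Depdc5* (adjusted p = 0.204). Leaving out single libraries, *Tsc2* passed without control library 2 (-0.27) or knockdown library 1 (-0.29), and *Depdc5* without knockdown library 2 (-0.17), but the corrected values were -0.01 and 0.01. In the folliculin complex, the GTPase-activating complex for RagC, *Fnip2* fell by 0.16 on the log2 scale (adjusted p = 0.00741), with -0.10 (adjusted p = 0.0834) corrected, and 1 of 3 passed. Of the 7 amino acid sensors 1 rose and 3 fell, and *Bmt2*, also called Samtor, the sensor of S-adenosylmethionine, rose with 0.38 (adjusted p = 5.61e-05) and 0.15 (adjusted p = 0.00964) corrected. Of the 4 proliferation markers 1 rose, with sums of 13.95 to 16.4 FPKM in si-Control against 14.04 to 17.1 FPKM in si-*Fndc1*.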

How the data were processed

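Poly(A) RNA of 5 si-Control and 5 si-*Fndc1* C2C12 libraries was sequenced. The authors deposited a table of raw read counts per gene with an FPKM beside each count, listed as 0.0001 where the count is 0. The deposited FPKM divides a count by a length for each gene and by library size, and what that length covers is not stated. The study's methods name TopHat, mm10 and htseq-count, the series text STAR and mm9, and the submitters' processing notes cutadapt 1.9, FastQC and GRCm39. The table names no build, and its gene starts lay within 1000 bases of GRCm38.p6 for 5 of the 35 members and of NCBIM37 for 0, so gene coordinates are printed as listed. The starts were not checked against GRCm39. Promoter sequences and their coordinates are from RefSeq (GRCm38.p6), and are not to be placed against the listed gene coordinates.

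Groups were taken from the labels. Genes with a mean of at least 0.5 FPKM (13548) were tested on counts with edgeR 4.0.16 (quasi-likelihood, TMM) in R 4.3.3, with Benjamini-Hochberg adjustment over all of them and a threshold of 0.05. The standard error is the log2 fold change divided by the square root of F. Single levels (FPKM) were compared by two-sided exact permutation tests. Alternatives were DESeq2 1.42.0, limma 3.58.1 on log2(FPKM + 1) and log2(FPKM + 0.1), other scalings and filters, each library left out, a replicate block, and an offset for GC content and length. The offset was a trend of log(count + 0.5) fitted in each library with splines of 5 degrees of freedom, for the 11185 tested genes (82.6%) with a GC content from NCBIM37 transcripts and a length implied by count and FPKM. Methods were tested on simulated data, with fewer genes changed than were called in the real data. There edgeR called 58 of 100 genes changed by 0.5 on the log2 scale and 77 of 100 changed by 1. A gene that did not pass is therefore not shown to be unchanged. Tables were handled in Python 3.11.15.

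The members and gene lists were chosen with earlier results of these data known. Values per library are given for members that passed the test without overlap of the groups, for the most abundant member of each class, and, chosen after their values were seen, for *Atp6v0c*, *Atp6ap1* and *Atp6v0a2*. Of other genes those with the smallest p of each list are named, except for 1 list whose gene is not reported here. *Rptor* and *Tfe3* were named after their values were seen, and *Pdia6*, *Nfkbil1* and *Rgs20* as overlapping neighbours. No library was a copy of another of its group (20 pairs, chi-square over its degrees of freedom from 36.0 to 65.8). Intervals and limits from counts cover counting error only.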

Additional observations from a re-analysis of the deposited data

Results flagged for a closer look

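In 84 groups of 5 libraries, over 42 named genes in both groups, a library stood apart from the other 4 by Dixon's test at the 95% level in 2, where chance gives about 1 in 20. *Atp6v1a* had 35.4 FPKM in si-Control library 2, above the other si-Control libraries at 32.8 to 33.6 FPKM. *Lamtor1* had 20.4 FPKM in si-Control library 1, below the others at 22.2 to 22.8 FPKM. Neither gene passed the test between the groups with all libraries.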

How the results depend on the processing

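Over the log2 fold changes of 41 named genes and 25 alternatives, 969 values kept their direction and side of the threshold, 18 lost a call, 22 gained one and 7 reversed. The correction for GC content and length changed most. Run on 11185 genes, it called 2538 and gave a median log2 fold change of the members of 0.0019, where the same genes without it gave 4244 and 0.0772 (4663 and 0.0711 over all tested genes), and with a replicate block added it gave 1647 genes and a median of 0.0004. On the same genes without either, 8 members rose. With the correction and the block 4 members rose, and 13 pathway genes were called in place of 26. *Atp6v0d1*, the V0 gene called in the main test, lost its call there (0.15, edgeR adjusted p = 0.0602). With upper-quartile scaling 9 members rose, and 7 to 9 rose when single libraries were left out. The number of members that fell, 0 in the report, was 4 with the correction and 3 with the block added, 1 with DESeq2, 1 with a filter at 5 FPKM, 2 with limma on quantile-normalized values, and 0 to 1 when single libraries were left out. The reversed values were those of *Atp6v1d* (-0.12) with the correction, and those of *Atp6ap2* (-0.23), *Rraga* (-0.15) and *Borcs7* (-0.071) with it, with and without the block. *Atp6v1g1* (0.07, adjusted p = 0.351) and *Lamp1* (0.02, adjusted p = 0.622) also lost their calls with limma on quantile-normalized values. The cause was not tested. Libraries with the same number did not deviate together (correlations of -0.06 to 0.06, and 1 of 5 controls correlated best with its own number), so the numbers do not pair them. With a replicate block alone 3572 genes were called and 7 members rose, and *Borcs7* (adjusted p = 0.0596) lost its call. Leaving out the mitochondrially encoded genes left the members' 7 calls in number. The limit of 3 counts in a library applies to the 4 members at 0, and the other 3 untested members had at most 9 counts over all libraries.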
